A study of Mus musculus with 2 samples.

Results

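Laminin, nidogen and integrin genes were examined in the embryonic mouse ureter, on arrays that set RNA of mutant ureters against RNA of control ureters. The members were the genes whose name on the array matched a laminin alpha, beta or gamma chain, a nidogen, or an integrin alpha or beta subunit. There were 39 such genes, with 55 probes, among all genes of the array, of which 20923 were tested. The sources were ureters of NMRI embryos at E13.5. The mutant pools were Pax2-cre/+;Fgfr1(fl/?);Fgfr2(fl/fl), that is, they carried the Cre transgene and floxed alleles of Fgfr2, a receptor of fibroblast growth factors. The control pools were Fgfr1(fl/?);Fgfr2(fl/?) and carried no Cre. The question mark stands for a wild-type or a floxed allele, so ureters that differed in Fgfr1 were mixed in the mutant pools, and the controls carried floxed alleles too. On array 1 the pools were female, and Cy5 labelled the mutant. On array 2 they were male and the dyes were exchanged, so array, sex and dye orientation cannot be told apart. The labels do not count the embryos of a pool, and the Cre acts in cells of the Pax2 lineage while the RNA came from whole ureters.

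Laminins are cross-shaped proteins of an alpha, a beta and a gamma chain, and they polymerise into the sheet on which a basement membrane is built. Nidogens link that sheet to the type IV collagen network. Integrins are receptors of an alpha and a beta subunit that span the cell membrane and bind laminins, collagens, fibronectin or proteins of other cells. In the ureter, a basement membrane separates the epithelium from the mesenchyme that surrounds it. In bulk RNA of a whole ureter, fewer cells of a type and less RNA per cell cannot be told apart.

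All ratios are log2 of mutant over control, turned on array 2 for its exchanged dyes, and a mean is given ± SD over n = 2 arrays. Levels are normalised log2 signals of a pool, and the level of a probe is compared only between pools, never with that of another probe. Where mutant and control pools are said to overlap or not, the comparison crosses arrays that differ in sex and dye orientation. The share of all genes with pools that do not overlap was not computed. Between 67.9% and 77.0% of probes were well above background in a pool, and no spot was saturated. The probes of Fgfr2 did not show the deletion (ratios of 0.27 and 0.057, and of 0.081 and 0.091). No source used here places them inside or outside the floxed part, and a probe outside it checks nothing. Xist, which coats the silenced X, was at 12.42 in both female pools. It was at 8.39 in the male mutant and 9.996 in the male control pool, with a ratio of -1.60 on the male array. Its other probe was at 7.37 in the male mutant and 8.61 in the male control pool. The male pools thus differed in Xist, and the members' ratios are given for each array. The arrays' ratios correlated at r = -0.024 across all tested genes, which are not independent replicates.

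Of the 39 members, 33 were well above background and were tested, and no member passed an adjusted p of 0.05 in limma, against 0.0287% of all genes (6 of 20923). The lowest adjusted p among the members was that of Lama5, 0.941. At an unadjusted limma p under 0.05 stood 3 members, Lama1 and Lama5 among them, against 4.04% of all genes. In size, no member reached 1.5-fold the same way on both arrays, against 0.392% of all genes, and 4 reached it on array 2 alone. Ratios were below 0 on both arrays for 11 of the 33 tested members, against 21.4% of all genes, and above 0 on both for 8, against 22.1%. The other 14 had opposite signs, against 56.5% of all genes. After median centring of the arrays in place of loess, 17 members were lower and 5 higher on both arrays, while 38.1% and 15.5% of all genes were so. The median member was at -0.019, with 0.022 on array 1 and -0.057 on array 2.

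**Figure D1:**
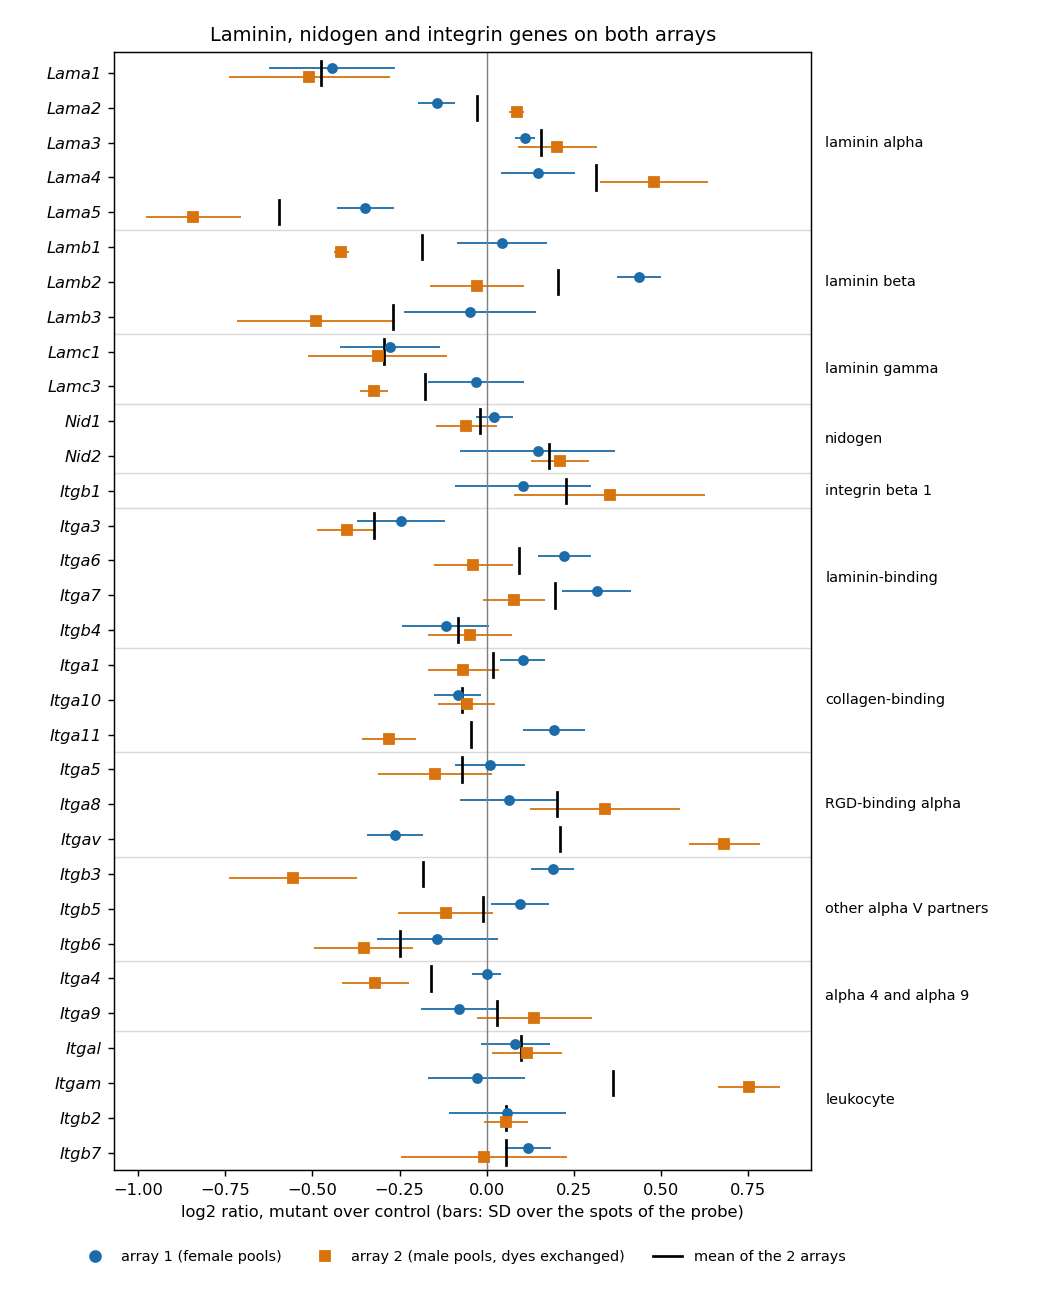
Log2 ratio of mutant over control for 32 tested members, on array 1 (blue circles) and array 2 (orange squares), with the SD over the spots of the probe as bars and the mean of both arrays as a black line. Lama1, Lama5, Lamc1 and Itga3 lie to the left of 0 on both arrays by more than the SD over spots, and Lama3 and Lama4 to the right.

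Each probe on these arrays is a designed oligonucleotide of 60 bases, and its first 30 bases are shown, 5′ to 3′, as the array files give them. The first 3 belong to laminin chains that were below 0 on both arrays by more than the SD over spots. The others are the 3 probes of Itgam, of which the brightest holds a run of CA units, in capitals.
Lama1: atgttgaactaaagccacacggacaacaga
Lama5: tttgttcctcctgcccaacaactgtcagta
Lamc1: actgtggcccttttcaatgtgccttcactt
Itgam, brightest probe: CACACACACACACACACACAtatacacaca
Itgam, next probe: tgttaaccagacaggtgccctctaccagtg
Itgam, dimmest probe: aagttcacaatcctgtaccactcattgtgg

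On mm9, the build of the array design, the Lama1 probe is at chr17:68171924-68171983 and the Lama5 probe at chr2:179911079-179911138. The Lamc1 probe is at chr1:155066156-155066215. The files place each probe in its transcript, at base 9456 for Lama1, 11327 for Lama5 and 7458 for Lamc1. They state neither exon nor coding or untranslated part.

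Laminin chains held the lowest ratios of all members. Both arrays put 6 of the 11 tested chains below 0 and 2 above it, where 21.4% and 22.1% of all genes lay so. The median chain was at -0.047 on array 1 and at -0.32 on array 2. Lama5 and Lamb3, chains that epithelia are known to make, were among the 6, while the epithelial chain Lama3 and Lama4, a chain of vessels and mesenchyme, were the 2 above 0. None of the chains passed the test.

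Lama5 encodes the main laminin alpha chain under mature epithelia. Its level was 13.31 in the control and 12.96 in the mutant pool of array 1, and 13.01 in the control and 12.17 in the mutant pool of array 2. Both mutant pools thus lay below both control pools. The ratios were -0.35 and -0.84, with a mean of -0.59 ± 0.35, a 1.51-fold difference, and only 0.253% of all tested genes had a lower mean. The ratio of array 2 was the larger in size, and the SD over spots was 0.082 on array 1 and 0.14 on array 2.

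Lama1 encodes the alpha chain of embryonic laminin, which early epithelia lay down. It was at 13.19 in the control and 12.75 in the mutant pool of array 1, and at 12.87 and 12.36 on array 2. Both controls lay above both mutant pools. Its ratios of -0.44 and -0.51 were close together, with a mean of -0.48 ± 0.046, a 1.39-fold difference. Of all tested genes, 0.703% had a lower mean ratio.

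Lamc1 is the gamma chain of most laminins. It was at 13.93 and 13.65 in the control and mutant pools of array 1, and at 14.17 and 13.86 on array 2. The male mutant pool was above the female mutant pool and below both controls, so the pools did not overlap. Its ratios of -0.28 and -0.31 gave -0.30 ± 0.025, and -0.47 after median centring. Lamc3, another gamma chain, was at -0.031 and -0.32, so that its low mean came from array 2.

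Lama3 and Lamb3 encode an alpha and a beta chain of the laminin that anchors epithelia, and they did not share a direction. Lamb3 was at -0.047 and -0.49, a mean of -0.27 ± 0.31, which was -0.41 in the authors' deposited table. Lama3 was at 0.11 and 0.20, a mean of 0.16 ± 0.065, and its dimmer probe was at -0.016 and -0.14.

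The beta chains that join most other laminins differed between the arrays. Lamb1 was at 0.043 and -0.42, and Lamb2, a beta chain of vessel, muscle and kidney basement membranes, was at 0.44 and -0.029. The ratio of Lamb2 on array 1 was the highest of all tested members there.

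The remaining alpha chains are those of mesenchyme, muscle and vessels. Lama4 was at 11.79 in the control and 11.94 in the mutant pool of array 1, and at 11.99 and 12.47 on array 2. The female mutant pool lay below the male control pool, so the groups overlapped, although both ratios were above 0. They were 0.15 and 0.48, with a mean of 0.31 ± 0.24, which was 0.15 after median centring. Lama2, the alpha chain of muscle and nerve basement membranes, was at -0.14 and 0.086. Of 12 tested endothelial markers, both arrays put 6 above 0 and 2 below it, where 22.1% and 21.4% of all genes lay so. Cldn5 was at 0.58 ± 0.061, Tek at 0.26 ± 0.18 and Egfl7 at 0.25 ± 0.18. The list medians were 0.071 and 0.067 on array 1 and array 2. The markers had mean levels of 10.701 and 10.577 in the female mutant and control pools and 10.699 and 10.648 in the male ones. Their part in the Lama4 ratios was not tested.

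**Figure D2:**
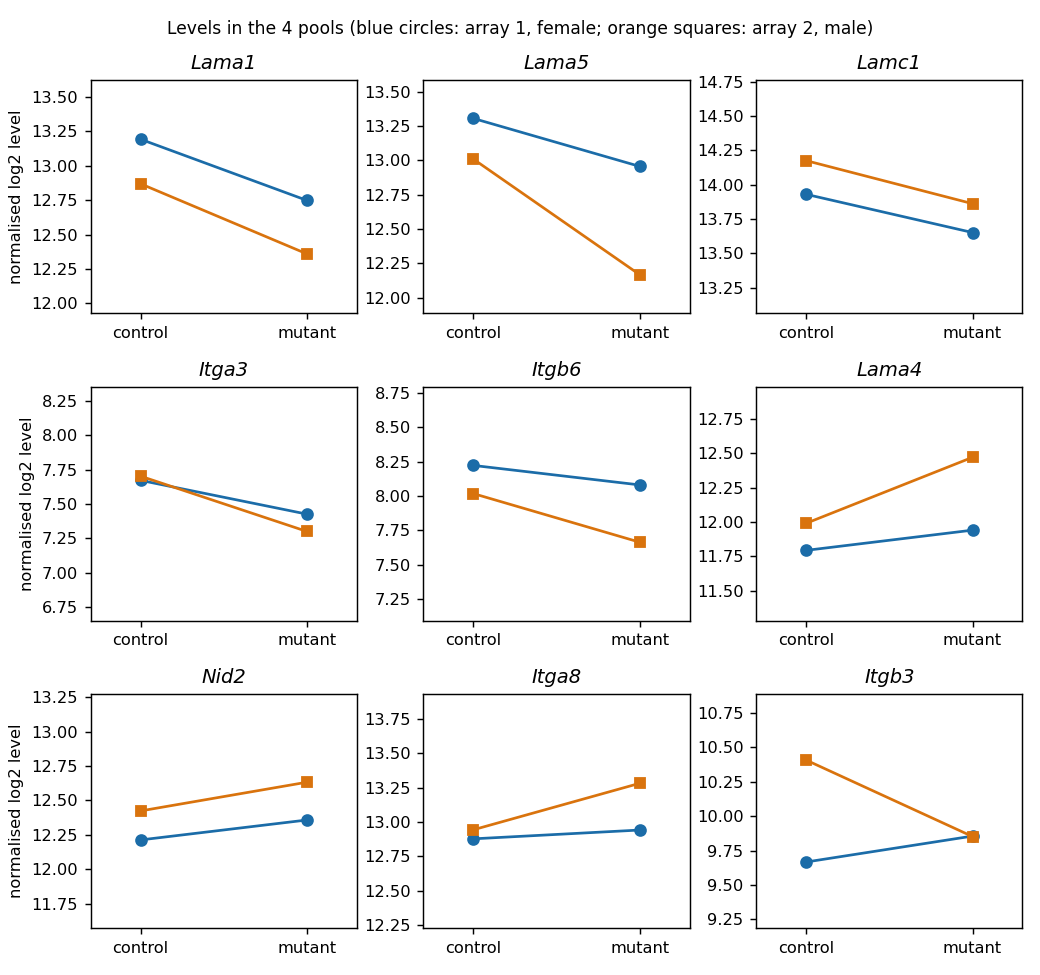
Normalised log2 level of the probe of 9 members in the control and mutant pool of array 1 (blue circles) and array 2 (orange squares), with a line joining the pools of an array and axes of equal span in every panel. Lines of Lama1, Lama5, Lamc1, Itga3 and Itgb6 go down from control to mutant on both arrays, those of Lama4, Nid2 and Itga8 go up, and those of Itgb3 go opposite ways.

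Of the nidogens, Nid2 was above 0 on both arrays and Nid1 was close to 0. Nid2 was at 12.21 and 12.36 in the control and mutant pools of array 1 and at 12.42 and 12.63 on array 2, so that the female mutant pool lay below the male control pool. Its ratios were 0.15 and 0.21, with a mean of 0.18 ± 0.045, which was 0.015 after median centring. Nid1 was at 0.022 and -0.059 at its brightest probe, and its dimmest probe was at 0.090 and -0.41.

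Integrins as a family had medians of 0.061 and -0.043 on the arrays. Of 20 tested subunits, 5 were higher and 5 lower on both arrays and 10 had opposite signs, shares close to those of all genes. Itga3, Itgb6, Itgb4, Itga10 and Itga4 were the 5 lower ones, and the array 1 ratio of Itga4 was only -0.00058. Itgb1, Itga8, Itga7, Itgal and Itgb2 were the 5 higher ones.

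Among the laminin-binding subunits, Itga3 had the lowest ratio of all integrins. It pairs with Itgb1 as a receptor that epithelia use on laminins. Its level was 7.67 in the control and 7.43 in the mutant pool of array 1, and 7.70 and 7.30 on array 2. Both controls were above both mutant pools. The ratios of -0.25 and -0.40 gave -0.32 ± 0.11, and 2.63% of all tested genes had a lower mean. From the scanner's processed signals the mean was -0.57, and the authors' deposited table gave -0.56. Itgb4, the subunit of hemidesmosomes, was at -0.12 and -0.048, within the SD over its spots on both arrays (0.13 and 0.12). Its partner Itga6 was at 0.22 and -0.039 at the brightest probe and at -0.17 and -0.21 at the next, so its direction depended on the probe. Itga7, a laminin receptor of muscle, was at 0.31 and 0.079, and 11 tested skeletal muscle markers had medians of 0.26 and 0.33 beside it, of which 7 were higher on both arrays. The mean level of these markers was 9.43 in the mutant and 9.13 in the control pool of array 1, and 9.51 and 9.02 on array 2. Their part in the ratio of Itga7 was not tested.

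Itgb1 is the common beta subunit of the laminin, collagen and most fibronectin receptors. The array design places the 60 bases of its brightest probe over a longer stretch, from 131250081 to 131255976 on chromosome 8. That probe was at 0.10 and 0.35, a mean of 0.23 ± 0.18. These ratios came with SDs over spots of 0.20 and 0.27. The other probe, from 131246349 to 131246408, was at -0.014 and -0.51, with SDs over spots of 0.045 and 0.041. The probes thus went opposite ways on array 2, and the mean of both was -0.016.

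The collagen-binding subunits were close to 0. Itga1 was at 0.10 and -0.067, Itga10 at -0.084 and -0.057, and Itga11, a collagen receptor of mesenchyme, at 0.19 and -0.28. Itga2 could not be tested. Its probe was well above background in Cy3 at all 4 spots of each array, which held the control pool on array 1 and the mutant pool on array 2, and in Cy5 at 2 and 0 spots.

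Other alpha subunits recognise the RGD motif of fibronectin and related proteins. Itga8, which pairs with Itgb1 and is known from kidney and ureter mesenchyme as the receptor of nephronectin, was at 12.88 in the control and 12.94 in the mutant pool of array 1, and at 12.94 and 13.28 on array 2. The female mutant and male control pools were level. The ratios of 0.064 and 0.34 gave 0.20 ± 0.19, and 0.033 after median centring. Itga5, the fibronectin receptor subunit, was at 0.0087 and -0.15.

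Itgav was at -0.26 and 0.68, the widest gap between arrays of all tested members. Its dimmer probe was at 0.015 and -0.54, and the array 1 value was within its SD over spots of 0.045. The probes of Itgav thus went opposite ways by more than that SD on array 2 only. Of its beta partners, Itgb6, a subunit of epithelia that activates TGF-beta, was at 8.22 in the control and 8.08 in the mutant pool of array 1, and at 8.02 and 7.66 on array 2. The female mutant pool lay above the male control pool. Its ratios of -0.14 and -0.35 gave -0.25 ± 0.15, and -0.37 with the processed signals. Itgb5 was at 0.095 and -0.12. Itgb8 could not be tested, and like Itga2 it was above background mainly in Cy3 (4 and 3 spots, against 1 and 1 in Cy5).

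Itgb3 pairs with Itgav, and with Itga2b on platelets. It was at 9.67 and 9.86 in the control and mutant pools of array 1, and at 10.41 and 9.85 on array 2, so that the male control pool stood above the other 3. Its ratios were 0.19 and -0.56 at the tested probe. The other probe was at 0.14 and 0.14, and was not tested because it was not well above background on array 1. Platelet markers had the signs of the tested probe in 7 of the 8 tested genes, higher on array 1 and lower on array 2. Their list medians were 0.25 and -0.82. Among them Gp9 was at 0.47 and -1.75, Ppbp at 0.26 and -1.18 and Treml1 at 0.84 and -1.64. The exception was Gp1bb, at 0.11 and 0.21, named after its values were known. Of all genes, 56.5% had opposite signs on the arrays, in either order. The share higher on array 1 and lower on array 2 was not computed. The mean level of the list was 8.10 in the female control, 8.43 in the female mutant, 9.0 in the male control and 8.18 in the male mutant pool. The markers Gp1ba, Gp5 and Tubb1 were not well above background, nor was Itga2b, the platelet partner of Itgb3. The part of platelet RNA in the Itgb3 ratio was not tested.

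Itga4 and Itga9 bind VCAM and fibronectin variants. Itga4 was at -0.00058 and -0.32, and Itga9 at -0.081 and 0.14.

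Among leukocyte integrins, Itgb2, the beta subunit that leukocytes share, was at 0.058 and 0.054, and Itgal, its partner on lymphocytes, was at 0.082 and 0.12. Itgb7 was at 0.12 and -0.0080. Of the markers of leukocytes, 15 of 17 tested were higher on both arrays, with list medians of 0.63 and 0.45. Csf1r, for example, was at 0.77 ± 0.0019, Tyrobp at 0.76 ± 0.17 and C1qa at 0.91 ± 0.30. The mean level of these markers was 9.76 in the mutant and 9.26 in the control pool of array 1, and 9.71 and 9.21 on array 2. Their part in the ratios of the leukocyte integrins was not tested. In the authors' deposited table, on the log2 scale, Itgb2 was at 0.29 and -0.017. Itgax, Itgae and Itgad could not be tested. Itgad was above background at all 4 spots of the male mutant pool, in Cy3, and at none of the other pools.

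Itgam, a subunit of macrophages and neutrophils, gave a different value at each of its probes. The brightest probe, which stands for the gene, was at -0.030 and 0.75. The others were at -0.0037 and 0.018, and at 0.27 and -0.24. The sequence of the brightest probe begins with 20 bases of CA repeat, as printed above, and it lies on chromosome 7 from 135261755 to 135261814. A repeat of any unit of 2 different bases over at least 12 bases was found in 214 of 39429 probes (0.543%), and in no other probe of the members. Whether that probe binds other transcripts was not tested. With it left out, Itgam was at -0.0037 and 0.018, and the counts of members higher and lower on both arrays stayed at 8 and 11.

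In all, 11 members had more than 1 tested probe, and the mean ratios of the probes had different signs in 6 of them (Itga1, Itga6, Itgav, Itgb1, Lama3 and Nid1). Lama1, Lama5, Lamb1, Lamc1, Lama4, Nid2, Itga3 and Itga8 each had a single probe on the array, so no second probe could check them.

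**Figure D3:**
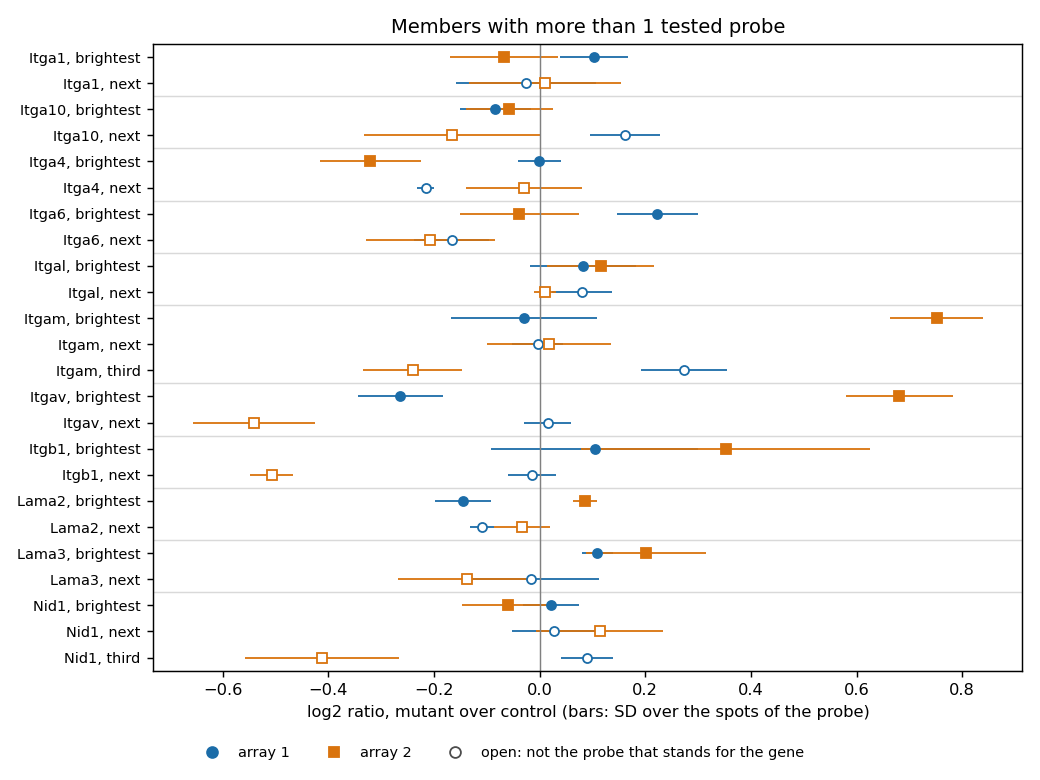
Log2 ratio of mutant over control at each tested probe of the 11 members with more than 1, on array 1 (circles) and array 2 (squares), filled for the probe that stands for the gene and open for the others, with the SD over spots as bars. On array 2, probes of Itgav, Itgb1, Itgam and Lama3 lie on opposite sides of 0 by more than that SD.

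The spots of a probe show how precisely each array measured it. A ratio with the same sign on both arrays and past the SD over its spots on both was found for 7 of the 33 tested members, against 16% of all genes. The lower ones included Lama1, Lama5, Lamc1 and Itga3, and the higher ones were Lama3 and Lama4. Of the 7, 6 were laminin chains. The dimmer probe of Lama3 went the other way.

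**Figure D4:**
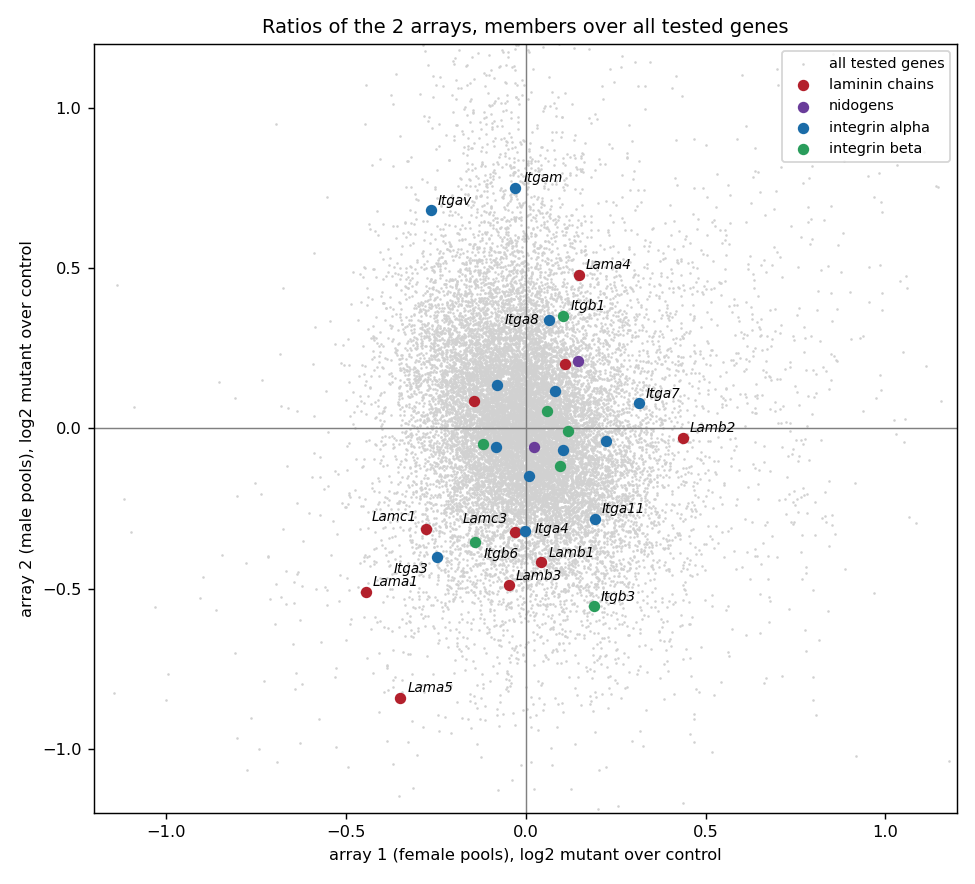
Ratios of array 1 (horizontal axis) against array 2 (vertical axis), both log2 mutant over control, for all tested genes (grey) and the members (coloured by family), with 152 genes beyond 1.2 on either axis not drawn. Lama1, Lama5, Lamc1 and Itga3 lie to the lower left, while Itgav, Itgam and Itgb3 lie where the arrays oppose each other.

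Other genes of basement membranes and of adhesion were read from lists of known partners, and none passed the test. Among 14 tested basement membrane genes, the arrays opposed each other for 10, and 1 was higher and 3 lower on both. The median was 0.087 for array 1 and -0.32 for array 2. The lower ones were Col15a1 at -0.21 ± 0.26, Col4a1 at -0.15 ± 0.060 and Col4a5 at -0.083 ± 0.040, which encode collagens of the basement membrane, and the higher one was Hmcn1 at 0.17 ± 0.20. The median of the laminin chains was also -0.32 on array 2, and it was -0.047 on array 1. The difference between the lists on array 1 was not tested.

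The list of laminin receptors other than integrins also held the tetraspanin Cd151. Among its 5 tested genes, both arrays put 2 above 0 and 2 below. Sdc1, a heparan sulfate carrier of epithelia, was at 0.42 ± 0.49, Bcam, a receptor of Lama5, at 0.068 ± 0.066, Dag1, the dystroglycan that binds laminin, at -0.29 ± 0.26, and Cd151, a tetraspanin that associates with laminin-binding integrins, at -0.065 ± 0.025.

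The 17 integrin ligands had 5 genes above 0 and 2 below it on both arrays. Frem2, a protein of the epithelial basement membrane in the Fraser complex, had the lowest mean of the list. It was at -0.68 and -0.53, a mean of -0.60 ± 0.11 (limma adjusted p = 0.774). Fras1 and Frem1, of the same complex, had opposite signs, at 0.021 and -0.57 and at 0.21 and -0.67. They are named with their values known. The higher ones included Madcam1 at 0.31 ± 0.25, Edil3 at 0.31 ± 0.32 and Vtn, the vitronectin of plasma, at 0.28 ± 0.30. Thbs1 at -0.26 ± 0.056, the other lower ligand, and Npnt, the nephronectin that Itga8 binds, at -0.21 and 0.14 were picked with their values known. The 20 tested adaptors that couple integrins to actin had 3 genes above 0 and 4 below it on both arrays, with Tns1 at -0.35 ± 0.46 and Parvg at 0.21 ± 0.042. Of 6 genes listed for hemidesmosomes, 2 were higher, the keratins Krt5 and Krt14. The 1 lower gene was Cd151, which was also on the list of laminin receptors. The largest of these means was 0.065 in size.

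Markers of the ureter's own cell types were read beside the laminin chains, and none passed the test. All 16 epithelial markers were well above background, and both arrays put 7 of them below 0 and 3 above it, where 21.4% and 22.1% of all genes lay so. The median marker was at -0.10 on array 1 and at -0.33 on array 2. Shh, a signal of the ureter epithelium, was at -0.54 ± 0.13, while the uroplakin genes Upk3a and Upk1b were at 1.35 ± 0.15 and 0.52 ± 0.037. The mean level of the list was 10.59 in the mutant and 10.58 in the control pool of array 1, and 10.63 and 10.69 on array 2. Mesenchymal markers, 16 of 16 above background, had 9 genes below 0 and 3 above it on both arrays. The median one was at -0.091 on array 1 and at -0.42 on array 2, with mutant and control mean levels of 12.70 and 12.73 on array 1 and 12.50 and 12.76 on array 2. Leukocyte markers were higher beside them, as given above, and among these Spi1 was not well above background. Erythroid markers had 10 of 11 tested genes above 0 on both arrays (medians of 0.95 and 0.30) and neural markers 11 of 12 (0.32 and 0.21). Nephron markers had 3 of 11 above 0 and 3 below it on both arrays (medians of -0.017 and 0.027). Among the lower ones, Six2 was at -1.12 and -0.22 and Gdnf at -0.67 and -0.45. The part of the cell types in the laminin ratios was not tested.

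**Figure D5:**
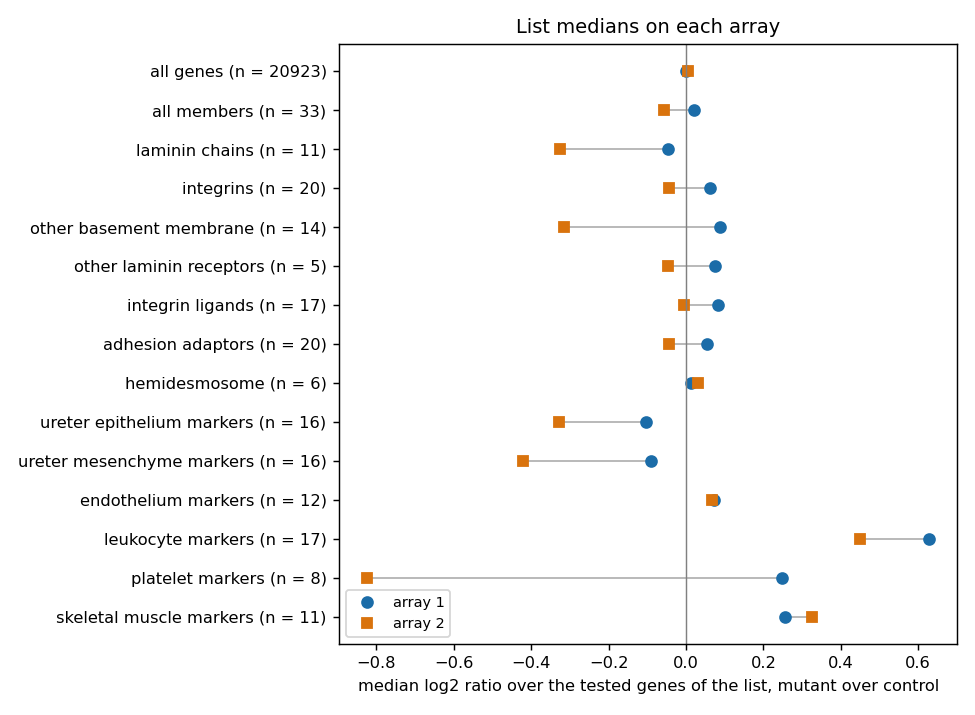
Median log2 ratio of mutant over control over the tested genes of each list, on array 1 (blue circles) and array 2 (orange squares), with the number of genes in brackets. Laminin chains and markers of ureter epithelium and mesenchyme lie below 0 on both arrays, leukocyte markers above 0 on both, and platelet markers on opposite sides.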

How the data were processed

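RNA of a mutant and a control pool (150 ng of total RNA each) was hybridised on each of 2 Agilent 2-colour arrays. The submitters' processing notes name Agilent Feature Extraction 10.7.3.1. Per the file headers, mean spot and local background signals are raw intensity values, and processed signals had background subtracted, trends removed and dyes balanced by LOWESS. Per the file headers, the deposited LogRatio column is log10 of Cy5 over Cy3. The authors' deposited table gives a score, a signed linear fold per probe with unstated centring.

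With limma 3.58.1 in R 4.3.3, normexp (offset 50) and loess (span 0.3, controls at weight 0) were applied, and array 2 was turned. Outlier-flagged spots (3.35% and 3.05%) were dropped before probe means. A probe was tested (27493 were) if a share over 0.5 of spots passed the scanner's background test in the mutant pools, or in the control pools, of both arrays. The brightest stood for a gene. Gene names were updated by accession through RefSeq's GRCm38.p6 table (28328 of 39429 probes matched). Ratios were tested against 0 by lmFit and eBayes with 1 residual degree of freedom and Benjamini-Hochberg adjustment over 20923 genes. Nothing says that pools were independent beyond their sex, so p-values cover only the spread between the arrays. For each gene eBayes drew that spread toward the spread of all genes, with 6.32 prior degrees of freedom beside the 1 residual degree. Levels are after loess and Aquantile. The offset pulls ratios of dim probes toward 0.

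All members are named except 1, which is counted but not reported here. From each partner list the rule names the 4 largest means among genes the same way on both arrays, from each marker list the 3 largest means whatever their signs on the arrays, and fewer are printed where they add nothing. Members, lists and tests were chosen with earlier results of these data known. Alternatives were other normalizations, offsets, filters, probe choices, the authors' table and each array alone.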

Additional observations from a re-analysis of the deposited data

How the results depend on the processing

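No member was called by limma under any of the 10 other settings that keep both arrays, and 3 or 4 members had an unadjusted p under 0.05. The count of all genes called was 6, and it was 0 after median centring, 11 with the processed signals, 14 with an offset of 10, 0 with dim probes kept in and 12 with probes above background in both pools. At an unadjusted p under 0.05 the counts of 0 stood beside 853 and 1076 genes. After median centring, 5 members were higher and 17 lower on both arrays, against 8 and 11, and their median was -0.13, against -0.019, where the median of all genes moved to -0.084. Means of 8 of the 33 tested members changed sign under some setting that keeps both arrays. All 8 were within their SD of 0 or had probes that disagreed. Beyond these settings, each of the 14 members with opposite signs on the arrays took the other sign on 1 array alone. Median centring also moved the means of Lamb1 to -0.36, Lamb2 to 0.077, Lamc3 to -0.29, Itga4 to -0.30 and Itgb3 to -0.29. It put Itgam at 0.14, Itgav at 0.096 and Itgb1 at 0.076. After median centring Itga1 was at -0.039, Itga6 at -0.067 and Itga9 at -0.14. Itga1 was at -0.028 with the processed signals and at -0.045 in the authors' deposited table, where Itgb5 was at 8.8e-05. With the mean of probes Itga6 was at -0.047, Itgav at -0.027 and Itgb1 at -0.016. With the second brightest probe, a setting chosen after seeing the data like the one without the CA repeat probe, Itga1 was at -0.0083, Itga6 at -0.19, Itgav at -0.26, Itgb1 at -0.26, Lama3 at -0.076 and Nid1 at 0.070. Without either array the value is that of the other, given in the text, and has no test, and counts over both arrays could not be recomputed. No further paired analysis was possible, because each array holds a mutant and a control pool and the ratio tested is already the paired value. The number of arrays limits the precision, as do signals near background for leukocyte integrins and for other dim members such as Itga3, Lama3 and Itga7.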
